A study of Mus musculus with 9 samples.

Results

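Igflr1, Cyfip2, Syp, Adgre4 and Treml4 are 5 of the 12003 genes measured in mouse alveolar macrophages with and without the von Hippel-Lindau gene Vhl. They were chosen by their measured levels, because those in the 3 knockout libraries lay far below those in the 6 control libraries, and because little is known of what they do in these cells. Their knockout values are therefore given as a description, without a test. The choice did not use the difference between the 2 kinds of control, the relatives of the 5 genes or their neighbours in the genome, and those were tested. Both kinds of control had to lie far above the knockouts, so a gene strongly lowered by Cre alone could hardly be chosen. The lists of relatives were made with earlier results of these data known.

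Alveolar macrophages live in the air spaces of the lung, where they clear particles and surfactant. They were rinsed from the lungs of untreated C57BL/6 mice aged 8 to 12 weeks and enriched with magnetic beads against CD11c. Each of the 9 libraries holds polyadenylated RNA from a pool of 5 to 7 mice, with 3 pools per genotype. Floxed controls were Vhl(flox/flox)/CD11c(+/+), with loxP sites in both Vhl alleles and no Cre recombinase. Cre controls were Vhl(+/+)/CD11c(cre/+), with the recombinase driven by the CD11c promoter and intact Vhl, and Vhl knockouts were Vhl(flox/flox)/CD11c(cre/+). Dendritic cells also carry CD11c, so neither the beads nor the promoter separates them from macrophages. P-values measure the spread between pools, each of which averages several mice.

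Each library held between 18201116 and 25861174 reads assigned to genes. Levels are given as normalized reads, that is reads scaled to the size of each library, and 1 read is worth 0.0400 to 0.0565 of them. Vhl itself stood at 20.9 ± 3.79 (SD, n = 6) in controls and at 2.23 ± 0.261 (SD, n = 3) in knockouts. All 12 of the alveolar macrophage markers looked for were measured, and none was at 0 in any library. Their summed level was 26970 to 31969 in the control libraries and 36756 to 49111 in the knockouts. The markers did not move together. In limma, knockout against both controls, 5 rose, 3 fell and 4 did not pass. The first principal component held 61.7% of the variance and separated the knockouts from all controls. The second held 15.0% and was higher in library 1 of each genotype than in its partners, so values without those 3 libraries are given below.

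VHL is the part of a ubiquitin ligase that recognises the alpha subunits of hypoxia-inducible factors and marks them for destruction when oxygen is present. The 5 genes belong to separate families. CYFIP2 is a subunit of the WAVE complex, through which the small GTPase Rac starts the branching of actin filaments by the Arp2/3 complex, and CYFIP proteins also bind the RNA-binding protein FMRP. Synaptophysin, encoded by Syp, is a membrane protein of small secretory vesicles and a common marker of neurons and neuroendocrine cells. ADGRE4 is an adhesion G protein-coupled receptor of myeloid cells, related to the macrophage marker F4/80. TREML4 is a myeloid receptor of the TREM family that binds dying cells, signals with the adaptor DAP12 and acts in the response to TLR7. IGFLR1 is a membrane receptor related to the tumour necrosis factor receptors, with a ligand of the insulin growth factor-like family.

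The starts of 3 of the 5 genes are shown because these 3 had the smallest share of the control level left in knockouts and their promoters differ in make-up. Each stretch runs 5′ to 3′ from 250 bases before the RefSeq start site to 20 bases after it (GRCm38.p6, plus strand): chr7:30565177-30565446 for Igflr1, chrX:7638330-7638599 for Syp and chr17:55749734-55750003 for Adgre4. Capitals mark GAGGAA, the core bound by the macrophage factor PU.1, in Igflr1. In Syp they mark, in order, 2 copies of the GC box GGGCGG and 1 copy of GCGTG, a core bound by hypoxia-inducible factors.
Igflr1: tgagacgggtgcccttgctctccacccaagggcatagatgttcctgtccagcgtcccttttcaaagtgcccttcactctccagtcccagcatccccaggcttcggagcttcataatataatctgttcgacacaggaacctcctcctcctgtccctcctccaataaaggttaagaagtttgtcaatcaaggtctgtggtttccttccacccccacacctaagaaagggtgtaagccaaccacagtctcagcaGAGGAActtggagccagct
Syp: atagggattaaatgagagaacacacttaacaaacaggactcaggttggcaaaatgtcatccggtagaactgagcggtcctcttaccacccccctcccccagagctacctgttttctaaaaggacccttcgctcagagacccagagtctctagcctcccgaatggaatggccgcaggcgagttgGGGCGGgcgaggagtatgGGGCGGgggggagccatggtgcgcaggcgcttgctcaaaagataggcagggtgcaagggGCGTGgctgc
Adgre4: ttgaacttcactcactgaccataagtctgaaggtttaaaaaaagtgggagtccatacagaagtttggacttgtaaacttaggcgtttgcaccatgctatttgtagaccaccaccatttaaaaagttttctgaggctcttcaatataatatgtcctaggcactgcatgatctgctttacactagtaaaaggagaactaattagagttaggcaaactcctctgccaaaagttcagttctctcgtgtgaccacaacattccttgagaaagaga
Letters were searched on both strands over the full window of 250 bases before to 50 after the start, for all 5 genes and for all 32851 RefSeq promoters of that length. The cores of hypoxia-inducible factor sites were ACGTG and, as the other form, GCGTG. The PU.1 core and the GC box were as above, the AP-1 motif was TGANTCA, and the TATA box was searched as TATAAA. Where 2 motifs share letters, each was counted. GCGTG occurred only in Syp, 11 bases after the start, against 32.4% of all promoters, and ACGTG in none of the 5, against 19.6%. GAGGAA occurred in Igflr1 (2 bases after the start), in Adgre4 (reverse strand, 44 bases after, beyond the stretch shown) and in Treml4 (reverse strand, at 178 and 87 bases before the start), against 28.3% of all promoters. GGGCGG occurred in Syp, at 67 and 49 bases before the start, and in Cyfip2, 17 bases after it, against 35.7%. Neither TGANTCA (7.81% of all) nor TATAAA (13.6%) was found in any of the 5. The Cyfip2 window had 70.7% G and C bases and 29 CpG pairs, and the Syp window 59% and 18. The Igflr1 window (53.3%, 5 pairs) and the Treml4 window (54.3%, 2 pairs) were close to the medians of all promoters, 52.7% and 7, in base content, and the Adgre4 window was lower, with 40.3% and 2. A match of letters is a description and not a bound site.

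Igflr1 (ENSMUSG00000036826, chromosome 7, 30565427 to 30567962, plus strand) had the lowest remaining level of the 5 relative to controls. Its normalized reads were 48.1, 32.5 and 37.2 in floxed controls, 58.3, 32.6 and 43.2 in Cre controls, and 1.89, 1.79 and 1.1996 in knockouts. The lowest control library was 17.2 times the highest knockout library, so the groups were far apart. The mean was 41.98 ± 10.1 (SD, n = 6) in controls and 1.62 ± 0.372 (SD, n = 3) in knockouts, or 3.87% of controls, and the knockout values rest on 30 to 44 reads per library. On the log2(value + 1) scale the knockout was lower by -4.01. The annotation (GENCODE M21) also places Gm49396 over this locus. It was not analysed here, and no source used here gives the strand setting of the counting.

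Adgre4 (ENSMUSG00000032915, chromosome 17, 55749984 to 55853662, plus strand) varied most among controls and least among knockouts. Its normalized reads were 19.4, 13.9 and 6.35 in floxed controls, 3.57, 11.5 and 13.2 in Cre controls, and 0.643, 0.715 and 0.5998 in knockouts. The highest control library was 5.44 times the lowest, yet the lowest was still 4.99 times the highest knockout library. CT573084.1 and Gm18417 are annotated over the same span and were not analysed here. Whether any of their reads were counted with those of Adgre4 is not known. The 3 knockout values rest on 14 to 15 reads each, above the 3 reads that a count of 0 allows. The knockout mean was 0.653 ± 0.0580 (SD, n = 3), or 5.76% of the control mean of 11.3 ± 5.67 (SD, n = 6). The difference was -2.99 on the log2(value + 1) scale against floxed controls and -2.50 against Cre controls. Adding 1 to each value shrinks differences of low genes, and edgeR on the recovered reads gave -4.09 against both controls, beside -2.74 on that scale.

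Syp (ENSMUSG00000031144, chromosome X, 7638471 to 7653256, plus strand) was the steadiest of the 5 in controls. Its normalized reads were 12.1, 11.1 and 13.1 in floxed controls, 12.0, 9.99 and 11.2 in Cre controls, and 1.29, 0.562 and 0.720 in knockouts. The control libraries spanned a range of only 1.31 times, and the lowest was 7.77 times the highest knockout library. The knockout mean of 0.856 ± 0.381 (SD, n = 3) was 7.40% of the control mean of 11.6 ± 1.05 (SD, n = 6). These values rest on 11 to 30 reads per knockout library. Gm14703 is annotated over this locus and was not analysed here, and whether any of its reads were counted with those of Syp is not known. The difference was -2.78 on the log2(value + 1) scale and -3.73 with edgeR on the recovered reads.

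Cyfip2 (ENSMUSG00000020340, chromosome 11, 46193850 to 46312859, minus strand) kept about the same share of its control level as Vhl did. Its normalized reads were 37.1, 37.7 and 24.4 in floxed controls, 20.6, 48.9 and 41.5 in Cre controls, and 4.59, 2.81 and 3.32 in knockouts. The groups did not overlap, and the lowest control library was 4.49 times the highest knockout library. The knockout mean of 3.57 ± 0.918 (SD, n = 3) was 10.2% of the control mean of 35.1 ± 10.6 (SD, n = 6), against 10.6% for Vhl. The difference was -2.94 on the log2(value + 1) scale. The spans of Fndc9 and Gm12568 overlap that of Cyfip2 in the annotation. They were not analysed here, and whether any of their reads were counted with its own is not known.

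Treml4 (ENSMUSG00000051682, chromosome 17, 48264295 to 48275360, plus strand) had the smallest difference of the 5 and stayed well measured in knockouts. Its normalized reads were 55.6, 72.9 and 57.5 in floxed controls, 56.4, 98.2 and 99.6 in Cre controls, and 17.0, 20.4 and 16.5 in knockouts. The lowest control library was 2.73 times the highest knockout library. The knockout mean of 17.97 ± 2.09 (SD, n = 3) was 24.5% of the control mean of 73.4 ± 20.8 (SD, n = 6), and each knockout value rests on 397 to 413 reads. The difference was -1.73 on the log2(value + 1) scale against floxed controls and -2.14 against Cre controls.

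**Figure D1:**
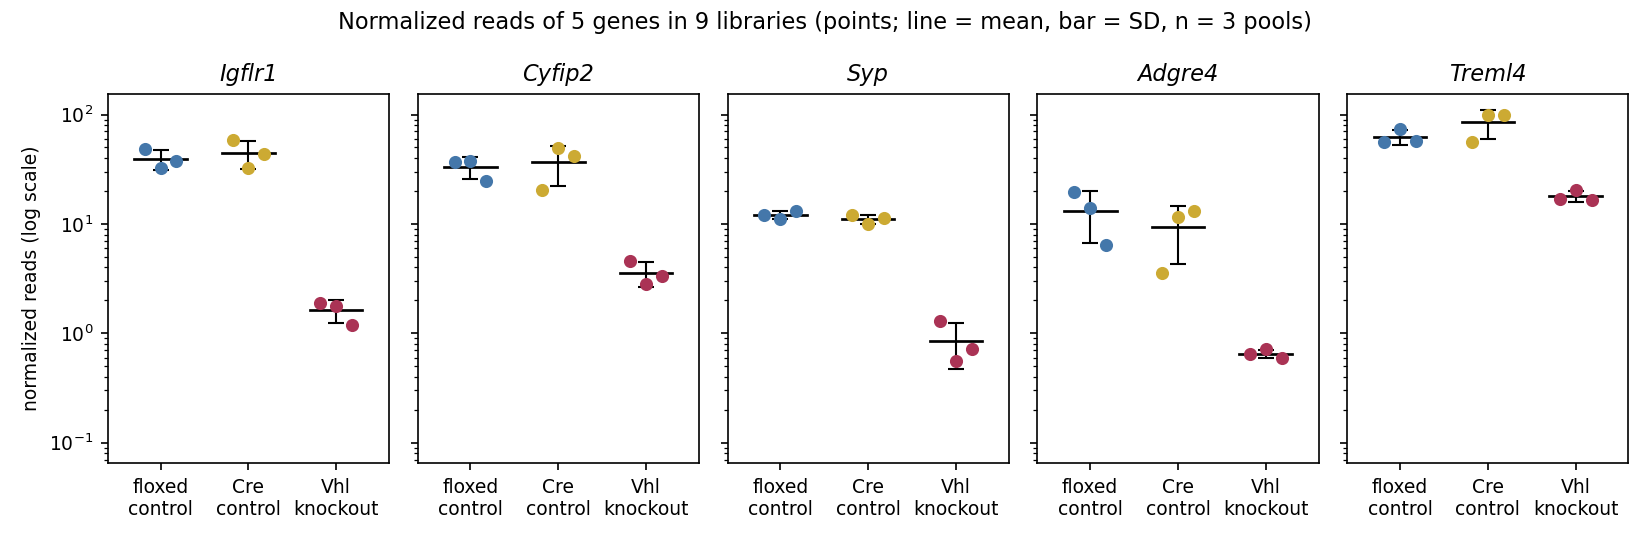
Normalized reads of the 5 genes in each of the 9 libraries, by genotype, with the mean and SD of each genotype (n = 3 pools). All 3 knockout libraries lie below all 6 control libraries for each gene, with the widest gap for Igflr1 and the widest control spread for Adgre4.

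For all 5 genes every knockout library was below every control library, which holds for 18.5% of the 12003 genes. The choice of the 5 used this contrast, so nothing is read from that count. Among 62 genes with a control mean of at least 5, no overlap and a knockout mean under 25% of controls, ordered by the share that remained, Igflr1 was at place 2, Adgre4 at 4, Syp at 6, Cyfip2 at 11 and Treml4 at 60. Those limits were also set with the values known. In bulk RNA a lower level from fewer cells of a type and one from less RNA per cell cannot be told apart.

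**Figure D2:**
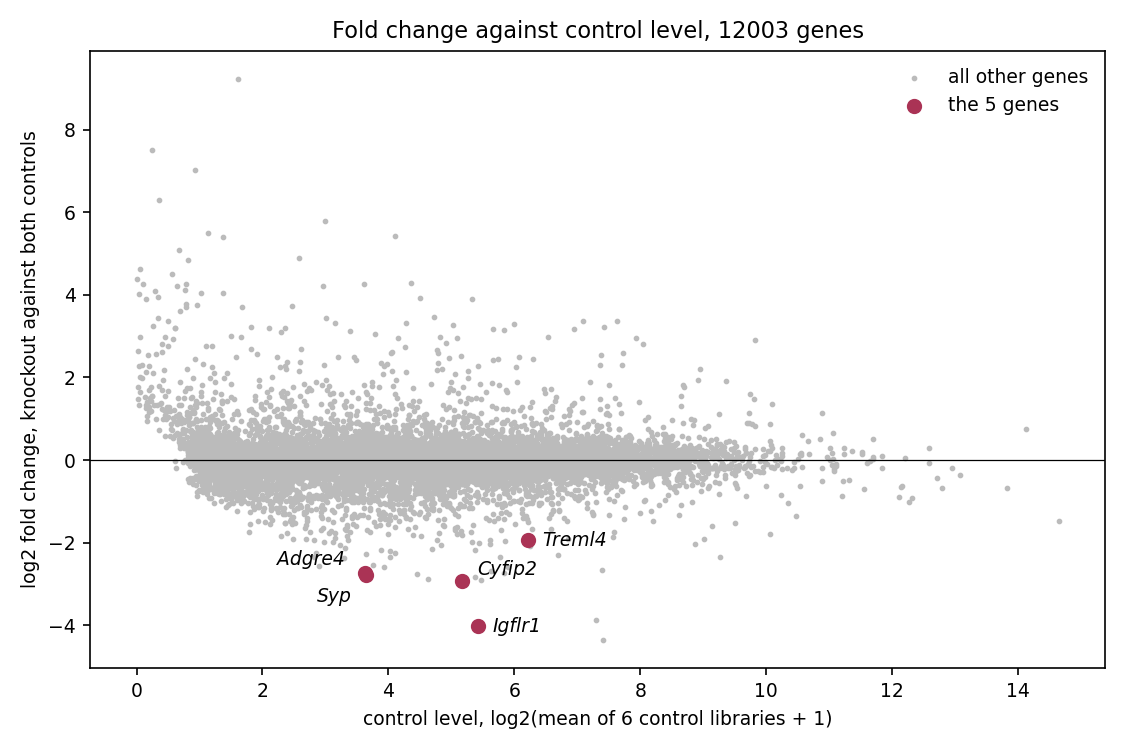
Log2 fold change on the log2(value + 1) scale, knockout against both controls, by control level as log2(mean of 6 control libraries + 1) for all genes, with the 5 genes named. Control means of the 5 run from 11.3 (Adgre4) to 73.4 (Treml4), and fold changes from -4.01 (Igflr1) to -1.93 (Treml4). The Syp and Adgre4 points nearly coincide.

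Per kilobase of exon, which allows levels of different genes to be compared, the order in controls was Treml4 (36.7 normalized reads per kilobase), Igflr1 (33.1), Cyfip2 (4.93), Adgre4 (3.25) and Syp (2.22). The control libraries of Treml4 (27.8 to 49.9) and Igflr1 (25.6 to 45.9) overlapped, as did those of Cyfip2 (2.90 to 6.89) with Adgre4 (1.02 to 5.56), and of Adgre4 with Syp (1.92 to 2.51). Treml4 and Igflr1 were thus the abundant pair, near the 89.0 and 87.9 percentile of all genes, and the other 3 lay between the 26.6 and 45.4 percentile. In knockouts the order was Treml4 (8.999), Igflr1 (1.28), Cyfip2 (0.503), Adgre4 (0.187) and Syp (0.164). Treml4 was still at the 61.5 percentile there and Igflr1 at the 18.1, while Cyfip2 was at 8.47, Adgre4 at 2.47 and Syp at 2.03. Every gene in the table reaches 0.962 normalized reads in at least 3 libraries, so genes low in all libraries are absent. The Adgre4 knockouts (0.643, 0.715 and 0.5998) and Syp knockouts 2 and 3 (0.562 and 0.720) lie below that value. The 5 were also chosen for low knockout levels, so nothing is read from their places in knockouts.

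The Cre controls were compared with the floxed controls. The choice required high levels in both, so a strong fall with Cre alone could hardly be seen in these 5 genes. By adjusted p in limma 0 of 5 passed, beside 0.167% of all genes. At an unadjusted limma p under 0.05 the count was also 0 of 5, beside 961 of all 12003 genes. Treml4 had the largest positive difference, from 62.0 ± 9.51 (SD, n = 3) in floxed to 84.7 ± 24.5 (SD, n = 3) in Cre controls. That was 0.41 on the log2 scale with a 95% interval of -0.04 to 0.86 (limma adjusted p = 0.629). Adgre4 was the widest in uncertainty, at -0.49 with an interval of -1.47 to 0.50 (limma adjusted p = 0.749). Syp gave -0.11 (-0.45 to 0.22, limma adjusted p = 0.827), Igflr1 0.16 (-0.30 to 0.63, adjusted p = 0.820) and Cyfip2 0.10 (-0.56 to 0.75, adjusted p = 0.942). On the recovered reads edgeR called 0 of 5, with 0 at an unadjusted p under 0.05. DESeq2 also called 0 of 5, beside 74 genes called in all, and 1, Treml4, was under 0.05 before adjustment (DESeq2 adjusted p = 0.527). The sign of the Igflr1, Cyfip2 and Adgre4 differences turned when single libraries were left out.

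Relatives of the 5 genes were taken from 10 lists of families and partners, and 96 of them were measured and tested in the knockout against both controls with limma. The lists were made with earlier results of these data known, so their counts here and below are a description. Of these 28 fell (29.2%) and 17 rose (17.7%), beside 20.2% of all genes that fell and 19.7% that rose, and 51 did not pass. With the deposited scaling factor taken out, 38 fell and 13 rose, beside 23.6% of all genes that fell and 16% that rose in that fit. Their median difference was -0.11 on the log2(value + 1) scale, beside -0.002 over all genes. The TLR7 pathway list, with 14 genes, held 9 of the 28 relatives that fell in the main fit.

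The closest relative of Cyfip2 is Cyfip1, the other CYFIP subunit of the WAVE complex. Cyfip1 stood at 280 ± 13.1 (SD, n = 6) in controls and 274 ± 11.2 (SD, n = 3) in knockouts, a difference of -0.03 that did not pass (limma adjusted p = 0.663). Of the 8 measured WAVE relatives 3 fell and 0 rose. Only 1 fell when floxed control 2, Cre control 3 or any 1 of the knockouts was left out, and 1 rose without Cre control 2. Nckap1, a scaffold subunit, fell from 7.58 to 3.93 (-0.80 ± 0.130 SE, limma adjusted p = 0.000848). The blood-cell scaffold Nckap1l (-0.15, adjusted p = 0.0385) and the subunit Abi3 (-0.28, adjusted p = 0.0445) passed narrowly, and their calls were lost in 8 and 9 of 17 other settings. Among Rac GTPases and the Arp2/3 complex, 3 of 12 fell and 2 rose, while 6 fell without floxed control 3 or with the scaling factor taken out, 5 fell with DESeq2, and 1 rose without Vhl knockout 1 or 3. Rac2, the Rac of blood cells, fell from 191 ± 15.8 (SD, n = 6) to 57.0 ± 6.09 (SD, n = 3), by 1.73 on the log2 scale (SE 0.0805, limma adjusted p = 1.67e-07). Rac3 rose from 7.73 ± 1.22 to 25.6 ± 2.81 (1.62 ± 0.128 SE, adjusted p = 7.61e-06). The Arp2/3 subunits Arpc5l (-0.40) and Arpc1b (-0.37) fell by less. Of 6 genes for FMRP and its cap-binding partners 1 fell, Fmr1 itself, from 63.7 to 49.3 (-0.36, limma adjusted p = 0.00732), and Eif4e did not pass (0.12, adjusted p = 0.174).

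Among the 3 measured relatives of Syp, the nearly ubiquitous Sypl stood at 178 ± 9.38 (SD, n = 6) in controls and 182 ± 3.08 (SD, n = 3) in knockouts and did not pass (limma adjusted p = 0.637). The synaptogyrin Syngr2 fell from 206 to 169 (-0.28, adjusted p = 0.00488). Of 9 vesicle fusion proteins of the SNARE family 2 fell and 3 rose. Only 1 fell when any 1 library other than floxed control 3 or Cre control 2 was left out, and only 1 rose without Vhl knockout 1 or 3. Vamp5 fell from 7.57 to 2.70 (-1.20, limma adjusted p = 5.53e-05) and Snap47 rose from 8.96 to 15.9 (0.78, adjusted p = 0.000816). Vamp2, a binding partner of synaptophysin, rose from 33.1 to 46.6 (0.50, adjusted p = 0.0242), and Vamp3 rose by 0.19 (adjusted p = 0.0180), though those calls were lost in 5 and 3 of 17 other settings.

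Adgre1, which encodes F4/80 and belongs to the same subfamily as Adgre4, stood at 445 ± 35.3 (SD, n = 6) in controls and 475 ± 17.0 (SD, n = 3) in knockouts and did not pass (0.10, limma adjusted p = 0.259). Of the 11 measured adhesion receptors beside Adgre4, 2 fell and 2 rose, and with 1 library left out 0 (without Vhl knockout 3) to 2 fell and 1 (without floxed control 2, Vhl knockout 2 or 3) to 2 rose. The latrophilin Adgrl2 rose from 86.1 to 148 (0.78, adjusted p = 4.51e-05). Adgrg6 fell from 2.57 to 0.642 (-1.04, adjusted p = 0.0315), Adgrg1 by 0.31 (adjusted p = 0.0243), and Celsr3 rose by 0.47 (adjusted p = 0.0250), each lost in 4 of 17 other settings.

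Of the 5 measured TREM relatives of Treml4, which lie beside it in one cluster, 1 rose and none fell. Trem1, an activating receptor of myeloid cells, rose from 80.1 ± 23.4 (SD, n = 6) to 146 ± 10.0 (SD, n = 3), by 0.90 on the log2 scale (limma adjusted p = 0.00410). Trem2, a lipid receptor of macrophages, stood at 65.4 and 74.7 and did not pass (0.20, adjusted p = 0.148), although it passed without floxed control 1 (adjusted p = 0.001961) and without library 1 of each genotype (0.0133). Of 9 adaptors and kinases below such receptors 3 fell and 1 rose, and the number that fell was 7 with the scaling factor taken out, 6 with DESeq2, 6 without floxed control 3 and 2 without Vhl knockout 3. Tyrobp, which encodes DAP12, stood at 672 and 585 and did not pass (-0.20, limma adjusted p = 0.116), but it passed in 2 of 17 other settings, with the scaling factor taken out (adjusted p = 0.0273) and without floxed control 3 (0.0148). The kinase Syk did not pass (-0.15, limma adjusted p = 0.0582) but did in 4 of 17, namely those 2 settings (0.0150 and 0.0480), DESeq2 (0.0144) and without Cre control 1 (0.0328). The exchange factor Vav1 fell from 196 to 125 (-0.64, limma adjusted p = 1.31e-05), the phosphatase Inpp5d by 0.22 (adjusted p = 0.00771) and Card9 by 0.37 (adjusted p = 0.0153). The adaptor Hcst rose from 8.43 to 12.1 (0.48, adjusted p = 0.00374).

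The TLR7 pathway, in which Treml4 acts, held 14 measured genes, of which 9 fell and 2 rose. The number that fell was 8 or 9 in all 17 other settings, while the number that rose was 0 without Vhl knockout 1, and 0 against floxed controls alone. Irf5, a transcription factor activated below TLR7, fell from 95.4 ± 11.5 (SD, n = 6) to 29.2 ± 1.14 (SD, n = 3), by 1.67 on the log2 scale (limma adjusted p = 4.63e-07). Irf7 fell from 15.0 to 5.04 (-1.42, adjusted p = 0.000522). The receptor Tlr8 fell from 286 to 218 (-0.39, adjusted p = 0.00125) and the transporter Unc93b1 from 310 to 249 (-0.32, adjusted p = 0.00109). The median of the list was -0.35, beside -0.002 over all genes.

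Tumour necrosis factor receptors other than Igflr1 moved in both directions, with 4 of 19 lower (2 without Vhl knockout 2), 6 higher and 9 not passing. Tnfrsf9, the costimulatory receptor 4-1BB, rose from 4.98 ± 2.18 (SD, n = 6) to 24.2 ± 3.00 (SD, n = 3), by 2.15 on the log2 scale (limma adjusted p = 0.000101). The neighbouring decoy-type receptors Tnfrsf23 (44.2 to 73.4), Tnfrsf26 (46.1 to 83.4) and Tnfrsf22 (27.2 to 38.9) rose by 0.72, 0.85 and 0.50 (largest limma adjusted p = 0.000172).

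**Figure D3:**
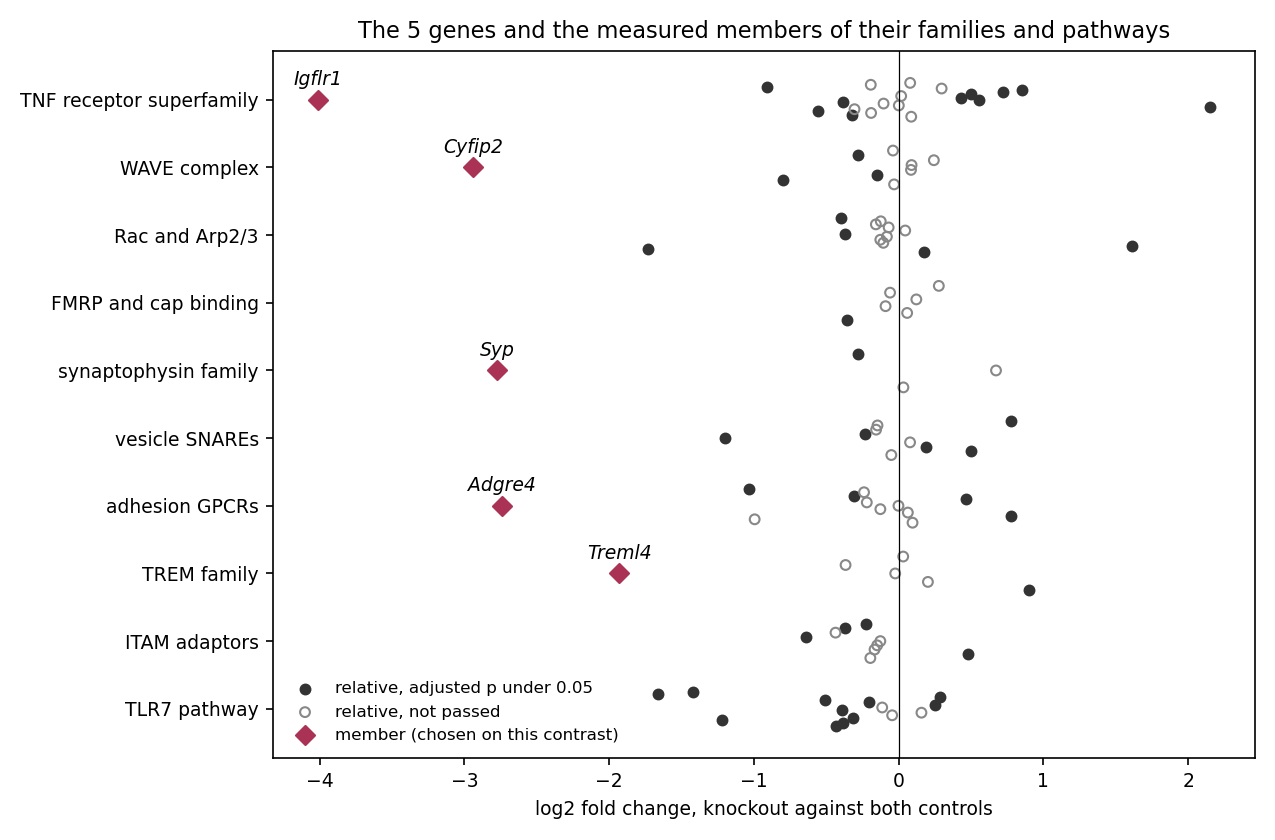
Log2 fold change on the log2(value + 1) scale, knockout against both controls, for the measured relatives in each of the 10 lists, with the 5 genes marked apart. The 5 were chosen on this contrast, so their place beside the relatives is no result. The TLR7 pathway list has the most relatives that fell (9 of 14).

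The nearest measured genes on either side of each of the 5 were also compared, and no measured gene overlapped any of them. Of these 10 neighbours 4 fell and 0 rose by limma, beside 20.2% of all genes that fell. U2af1l4, a splicing factor gene that ends 61 bases before Igflr1 on the same strand, fell from 25.8 to 19.5 (-0.38, limma adjusted p = 0.0150), and Kmt2b on the other side did not pass (-0.06, adjusted p = 0.672). Pot1b, 37355 bases from Adgre4, fell from 21.2 to 12.7 (-0.69, adjusted p = 0.000810), and Zfp119a did not pass. Cacna1f, a calcium channel gene 3274 bases from Syp, fell from 2.82 to 1.29 (-0.74, adjusted p = 0.00859), and Prickle3 did not pass (0.18, adjusted p = 0.156). The protease gene Adam19, 46506 bases from Cyfip2, fell from 8.24 to 3.18 (-1.11, adjusted p = 0.0249), and Med7 did not pass. Both neighbours of Treml4, Trem3 (-0.02, adjusted p = 0.937) and Treml2 (-0.37, adjusted p = 0.382), did not pass. The calls of U2af1l4 and Adam19 were lost in 2 and 3 of 17 other settings.

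The genes with the most similar pattern were found by Pearson's r over the 9 libraries on log2(value + 1), as a description. All 5 genes separate knockouts from controls, and so do the genes found. Nearest to Igflr1 were Zfp385a (r = 0.994), Clec4a2 (0.994) and P2rx5 (0.993), and nearest to Syp were Apcdd1 (0.995), P2rx5 (0.994) and Rac2 (0.994). P2rx5, an ATP-gated channel gene that stood at 15.3 in controls and 2.51 in knockouts, was thus near both. Nearest to Cyfip2 were Rasa3 (0.993), Gcat (0.993) and Glipr1 (0.992). Nearest to Adgre4 were Tnfaip8l1 (0.994), Csf1r (0.986), which encodes the receptor for macrophage colony-stimulating factor, and Nfkbie (0.983). Nearest to Treml4 were Cxcr1 (0.998), a chemokine receptor gene that stood at 35.1 and 8.92, H6pd (0.995) and Plaa (0.993). With the genotype means subtracted, none of these was among the 3 nearest. Those were then Vash1, Arhgef10l and Fam78b for Igflr1, Gm15542, Gdpd1 and Tlr13 for Cyfip2, Chadl, Bin2 and Pcbp4 for Syp, Eif1a, Mid1ip1 and Anpep for Adgre4, and Ubqln2, Nrp2 and Xlr4b for Treml4 (r from 0.954 to 0.983). Values this high can arise from taking the highest of all genes over only 9 libraries. Arhgef10l (0.995 in controls, 0.739 in knockouts) and Chadl (0.911 and 0.957) were also barely measured. No shared regulation is read from these names.

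Markers of other cells moved with the knockout as well. Of 15 dendritic cell markers 14 were measured, and all 14 fell by limma against both controls (12 without Vhl knockout 2 or 3), beside 20.2% of all genes. For 13 every knockout library was below every control, beside 18.5% of all genes. Against floxed controls alone 13 of the markers fell, and against Cre controls alone 11. Their summed level was 303, 174 and 203 in floxed controls, 182, 378 and 330 in Cre controls, and 75.1, 85.6 and 82.6 in knockouts, so that 31.0% of the control level remained. Single markers kept from 10.2% (Fscn1) to 49.6% (Relb), with a median of 31.1%, and 4 of the 14 were among the 62 steepest falls. As a percentage of that sum, Igflr1 was 8.63 to 32.1 in the control libraries and 1.45 to 2.51 in knockouts. Syp was 2.65 to 6.60 against 0.656 to 1.71, Adgre4 1.96 to 7.99 against 0.726 to 0.857, and Cyfip2 11.3 to 21.6 against 3.28 to 6.11. Treml4 was 18.3 to 41.9 in controls and 19.99 to 23.8 in knockouts. The 5 genes were chosen on the same knockout and control values, so nothing is read from these percentages. With the genotype means subtracted, Pearson's r with the log2 of that sum over the 9 libraries was 0.79 for Adgre4, 0.66 for Cyfip2 and 0.52 for Treml4. It was -0.29 for Igflr1 and -0.32 for Syp. Other marker sums gave values as large, such as 0.82 for Igflr1 with the neutrophil markers. These r values are a description, and the part of dendritic cells in the levels of the 5 genes was not tested.

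**Figure D4:**
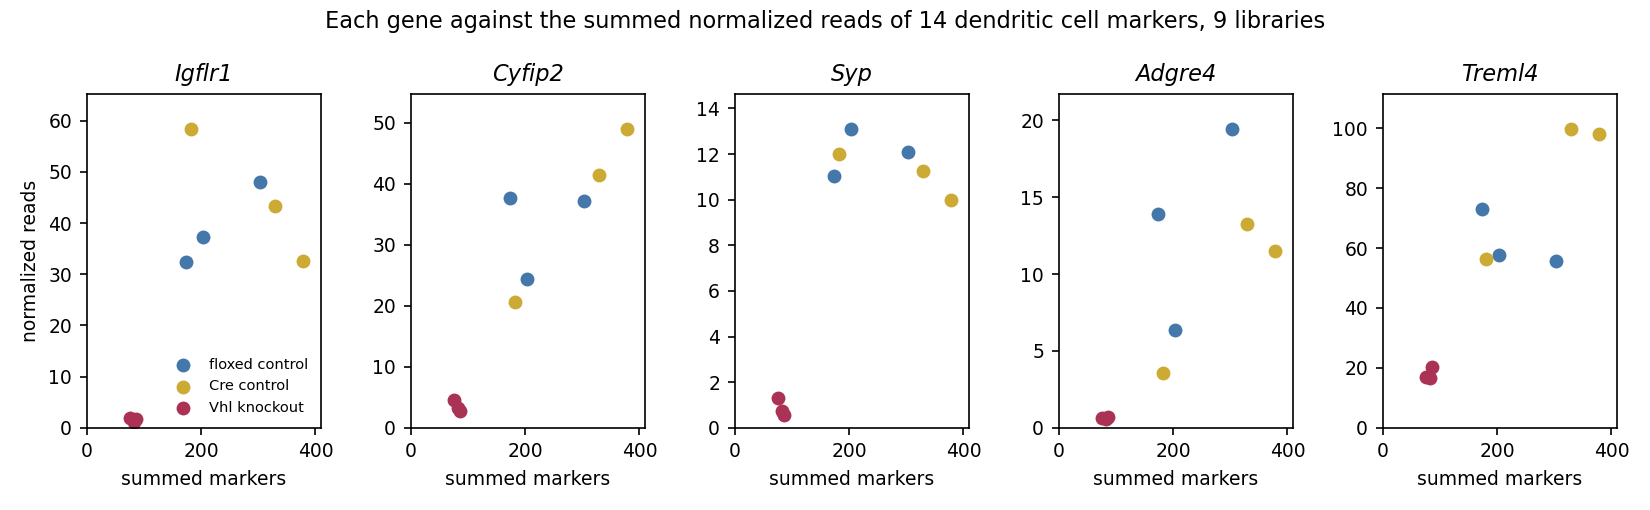
Normalized reads of each of the 5 genes against the summed normalized reads of 14 dendritic cell markers, 1 point per library, by genotype. The knockout libraries lie at sums of 75.1 to 85.6 and the controls at 174 to 378.

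Of 8 markers of nonclassical monocytes, which carry Treml4 and Adgre4, all 8 were measured, 5 fell and 1 rose. Their sum was 993 to 1084 in controls and 803 to 872 in knockouts. Of 8 markers of classical monocytes 1 fell (0 without floxed control 3 or any 1 of the knockouts) and 3 rose (2 without Cre control 1 or any 1 of the knockouts), with sums of 1750 to 2703 and 2281 to 2892. Among them F13a1 rose by 5.09 on the log2(value + 1) scale (limma adjusted p = 1.33e-08) and Ccr2 by 0.62 (adjusted p = 0.00356). Fn1 did not pass (0.29, adjusted p = 0.152). Of 15 neuroendocrine and neuronal markers, the cells in which Syp is best known, only Syn1 was measured, and it fell from 38.2 to 18.2 (-1.05, limma adjusted p = 7.46e-05). Of 14 T and natural killer cell markers 6 were measured, with sums of 181 to 250 in controls and 163 to 183 in knockouts, mostly from Cd2, which fell (call lost without Vhl knockout 2), and the T cell receptor genes Cd3e, Cd3d, Cd3g and Trac were not analysed here. Of 10 lung epithelial markers measured 3 fell (1 without Vhl knockout 2) and 1 rose, with sums of 225 to 491 and 325 to 384. Of 8 B cell markers 2 were measured, with sums of 1.36 to 73.3 and 11.3 to 20.3. The immunoglobulin gene Igkc passed as higher against both controls (1.78, limma adjusted p = 0.0437), but it was 3.62 higher against Cre controls (adjusted p = 0.00352) and -0.06 against floxed controls (adjusted p = 0.956), and its call was lost when any 1 library other than floxed control 1 was left out. Of 8 genes listed for granulocytes and mast cells 1 was measured, Siglecg, which did not pass, so the list says little about those cells. The 6 neutrophil markers measured had sums of 94.3 to 666 in controls and 138 to 404 in knockouts, highest in library 1 of each genotype. Mmp8 passed as higher (0.53, limma adjusted p = 0.0453) and lost that call in 7 of 17 other settings. Csf3r did not pass (-1.07, adjusted p = 0.120), but it was called lower with the replicate block (-1.07, adjusted p = 0.000279), without Vhl knockout 1 (-1.72, adjusted p = 0.0145) and without library 1 of each genotype (-1.28, adjusted p = 1.89e-05). Without those 3 libraries the differences of the 5 genes were -3.91 for Igflr1, -3.23 for Cyfip2, -2.91 for Syp, -2.84 for Adgre4 and -2.07 for Treml4, all 14 dendritic cell markers still fell, and 25 relatives fell and 15 rose, beside 18.3% of all genes that fell and 17.2% that rose in that fit. The part of these other cells in the results was not tested.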

How the data were processed

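Per the labels' protocols, polyadenylated RNA was read as single reads of 61 bases. RSEM 1.2.3, cutadapt 1.3, CASAVA 1.8.2 and the GRCm38 build are named per the submitters' processing notes. No source used here gives the annotation, the strand setting or later steps. The deposited signal is whole reads times 1 factor per library (100% of values whole within 0.01 read), equal to reads scaled to library size with trimmed mean of M values factors, and hides any shift common to all genes. Every gene reaches 0.962 in at least 3 libraries. Symbols (11935 genes, 68 without) came from GENCODE M21. A value of 0 allows up to 3 reads (0.120 to 0.170 normalized reads), for counting error only.

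Values were analysed as log2(value + 1) with limma 3.58.1 (R 4.3.3; trend, empirical Bayes, 1 mean per genotype, 9 libraries, two-sided, Benjamini-Hochberg over 12003 genes, called at adjusted p under 0.05), the test planned for scaled values. The fit was also run on simulated counts with the same spread for all genes and no structure shared by library 1 of each genotype. That run checks the code and says nothing on error rates in these data. Alternatives were edgeR 4.0.16 and DESeq2 1.42.0 on recovered reads, other scalings, pseudocount and filter, a replicate block and left-out libraries. Of 9 pairs of libraries within a genotype, none were duplicates.

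The members and lists were chosen with earlier results of these data known. Named genes are the 5 genes, Vhl, up to 4 called genes with the smallest adjusted p and 2 uncalled genes with the highest mean per family list, up to 3 per marker list, the nearest neighbours and the 3 most similar genes.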

Additional observations from a re-analysis of the deposited data

Results flagged for a closer look

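Klrb1c, a natural killer cell receptor gene and 1 of the 6 measured T and natural killer cell markers, differed between the 2 kinds of control. Its mean was 3.54 ± 0.849 (SD, n = 3) normalized reads in floxed controls, 0.118 ± 0.103 (SD, n = 3) in Cre controls and 1.53 ± 0.436 (SD, n = 3) in knockouts. The Cre control mean lies below what a count of 0 allows in those libraries (0.139 to 0.170 normalized reads). Cre controls were lower than floxed controls by -2.01 on the log2(value + 1) scale (limma adjusted p = 0.00189). The knockout lay between the 2 kinds of control, lower than floxed controls (-0.84, limma adjusted p = 0.00709) and higher than Cre controls (1.17, limma adjusted p = 0.00117). Against both controls the knockout did not pass in limma (0.16, adjusted p = 0.465). It passed as higher in edgeR (1.21, adjusted p = 0.041) and DESeq2 (1.24, adjusted p = 0.013). Klrb1c was picked out because the knockout difference depends on the control used.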

How the results depend on the processing

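All knockout differences of the 5 genes kept their sign under the 17 alternatives, from -1.61 to -4.79. On scales that shrink low values less, pseudocount 0.25, edgeR and DESeq2 gave -4.48, -4.69 and -4.69 for Igflr1, -3.47, -3.73 and -3.74 for Syp, and -3.50, -4.09 and -4.10 for Adgre4. Between Cre and floxed controls, the 20 genes called became 74 with DESeq2, 71 with the replicate block, 147 without library 1 of each genotype and 13 to 31 with 1 library left out. There the difference of Igflr1 ran from -0.044 (without Cre control 1) to 0.37, of Cyfip2 from -0.14 (without Cre control 2, below 0 also without floxed control 3 or Cre control 3) to 0.46, and of Adgre4 from -0.90 to 0.029 (without Cre control 1), and Adgre4 was 0.35 without library 1 of each genotype. With 1 library left out, 20 to 35 relatives fell and 11 (without Vhl knockout 1) to 18 rose. The replicate block gave 29 and 17. Numbers shared across genotypes were not treated as pairs in the main fit. Deviations of same-numbered libraries correlated at -0.09 to 0.53, and not every library was nearest its own number. Library 1 was nearest its own number in each pair of genotypes (0.20, 0.53 and 0.32), so the main fit leaves out a structure that library 1 shares across genotypes.

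Of 30 named relatives called, 22 kept their call in all 17 alternatives, as did 2 of 4 neighbours and 12 of 14 dendritic cell markers. Some uncalled genes changed sign. With the scaling factor taken out, Arpc2 was -0.0041, Sypl -0.016, B430306N03Rik -0.012 and Tnfrsf21 -0.032. On recovered reads, edgeR and DESeq2 gave -0.012 and -0.010 for B430306N03Rik and -0.32 and -0.32 for S100a9. Without library 1 of each genotype, Sypl was -0.0032, Siglecg 0.026, Kmt2b 0.0064, Med7 0.063, Zfp119a 0.057 and Trem3 0.074. With 1 library left out, Cyfip1 ran from -0.053 to 0.0023, Adgrl3 from -0.054 to 0.22, B430306N03Rik from -0.12 to 0.20, Cnpy3 from -0.099 to 0.0022, Tnfrsf21 from -0.018 to 0.045, S100a9 from -1.03 to 1.10, Kmt2b from -0.13 to 0.018, Med7 from -0.092 to 0.048, Zfp119a from -0.21 to 0.060 and Trem3 from -0.13 to 0.12. The causes were not tested. Depth limits Syp and Adgre4 most, at 11 to 30 reads per knockout library.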
